A study of Rattus norvegicus and Mus musculus with 74 samples.

Results

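The genes described here are the high-numbered zinc finger genes of rat and mouse, those whose symbol is Zfp followed by a number of 3 digits that starts with 6, 7, 8 or 9. The rule found 68 such genes among the 20110 genes listed in the rat table and 137 among the 23362 in the mouse table, with 65 symbols in both and 140 in all. A genomic region in these tables can list several genes, and a gene can be listed by several regions. Each gene was therefore represented by the region that lists it and has the highest mean signal over all 36 libraries of its species, called the gene's region below. This gave 66 distinct regions in rat and 124 in mouse, with a median length of 10.5 kb in rat and 13.2 kb in mouse. The gene's region held an annotated promoter for 62 of 68 rat genes and 133 of 137 mouse genes, and it listed at least 1 further gene for 29 rat and 76 mouse genes. Because H3K4me3 and H3K9Ac give the highest signals in these tables, the choice favours regions with those marks, for the zinc finger genes as for all other genes.

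The libraries are ChIP-seq profiles of 4 histone marks, H3K4me3, H3K9Ac, H3K27me3 and H3K9me3, from flash-frozen, formaldehyde-fixed brain cortex. The rat groups, all Sprague-Dawley, were animals exposed to valproic acid (VPA) before birth and given TAK-418, animals exposed to VPA before birth and given vehicle, and healthy controls given vehicle. The mouse groups, all C57BL/6J, were animals exposed to poly I:C before birth and given TAK-418, animals exposed to poly I:C before birth and given vehicle, and controls given vehicle. Each group had 3 libraries per mark, 72 in all, and both diseased models are exposure models with no engineered allele. TAK-418 inhibits LSD1 (Kdm1a), the demethylase that removes methyl groups from mono- and dimethylated lysine 4 of histone H3, and VPA inhibits histone deacetylases. Poly I:C is a synthetic double-stranded RNA that stands in for a viral infection of the mother. None of the groups used here received TAK-418 without the prenatal exposure. The values are the deposited average signal of a region in a library, with no count behind them, so the depth of a value is unknown. A mark is said to be called in a region when the region held an interval of that mark in at least 3 of the 9 libraries of the species.

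C2H2 zinc finger genes form the largest family of transcription factor genes in mammals. Many members carry a KRAB domain, which recruits the corepressor TRIM28 (KAP1) and, through it, the H3K9 methyltransferase SETDB1 and heterochromatin protein 1, and KRAB zinc finger proteins are best known for silencing endogenous retroviruses and other transposable elements. The genes arose by tandem duplication and many still lie side by side in clusters, in which the zinc-finger-coding exons at the 3′ ends of the genes can themselves carry H3K9me3 while the promoters stay active. H3K4me3 and H3K9Ac mark active promoters, H3K27me3 is the mark of Polycomb repression, and H3K9me3 is the mark of heterochromatin. The number in a Zfp symbol is only an order of naming, so the genes described here include KRAB and non-KRAB proteins.

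Some libraries stood apart before any gene was considered. In mouse H3K9me3, poly I:C TAK-418 2, poly I:C vehicle 1 and poly I:C vehicle 2 held 284, 446 and 251 called intervals, against 4460 to 32258 in the other 6 libraries. In mouse H3K27me3, poly I:C vehicle 3 held 1916 intervals, against 3236 to 13596 in the others. In rat H3K9me3, control 1 held 7704, against 15533 to 29883. The tissue label was read against marker genes. Among all genes in control H3K9Ac, the neuronal genes Snap25, Rbfox3 and Syt1 lay at the percentiles 94.7, 44.1 and 28.2 in rat, where Syt1 had no H3K9Ac call. In mouse, where all 3 were called, they lay at 70.9, 70.3 and 89.3. The liver gene Alb in rat lay at 24.4 and the muscle gene Myh4 in mouse at 15.2, both without an H3K9Ac call.

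Promoter sequences were available for rat from RefSeq on the GRCr8 build, each covering 250 bases before and 50 bases after the gene's start. By symbol, 55 of the 68 rat genes matched at least 1 promoter and 49 matched exactly 1. These 49 promoters held a median of 18 CG dinucleotides, with a range of 2 to 42, against a median of 7 over all 33469 promoters in the table. The 5 sequences that follow belong to genes the results turn on, and capitals mark CG, the letters searched; CG reads the same on both strands. Zfp638, Zfp746 and Zfp711 had H3K4me3 calls in the gene's region, whereas Zfp951 and Zfp958 were represented by regions with H3K9me3 calls and without H3K4me3. The Zfp958 region was centred 8.8 kb upstream of the start, and 23 of the 68 rat genes had a region away from their start. The marks of a gene's region are therefore not always those of the promoter sequence. The sequences were matched by symbol only, and were not placed on the rn5 build of the rat table.
Zfp638 promoter, GRCr8 chr4:117959801-117960100, plus strand: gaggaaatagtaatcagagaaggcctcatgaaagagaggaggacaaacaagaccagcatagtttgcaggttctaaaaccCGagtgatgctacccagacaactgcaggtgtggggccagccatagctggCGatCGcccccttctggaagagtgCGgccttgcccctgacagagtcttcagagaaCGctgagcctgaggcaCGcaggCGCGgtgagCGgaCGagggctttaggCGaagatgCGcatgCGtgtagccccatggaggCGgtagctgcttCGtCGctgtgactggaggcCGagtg
Zfp746 promoter, GRCr8 chr4:78409783-78410082, minus strand: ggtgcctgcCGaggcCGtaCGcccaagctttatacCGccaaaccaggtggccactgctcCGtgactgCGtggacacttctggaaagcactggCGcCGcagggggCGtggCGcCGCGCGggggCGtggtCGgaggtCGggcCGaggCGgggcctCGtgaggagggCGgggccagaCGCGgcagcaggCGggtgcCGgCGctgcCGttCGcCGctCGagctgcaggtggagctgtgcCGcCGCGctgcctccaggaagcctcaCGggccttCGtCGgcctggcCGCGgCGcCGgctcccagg
Zfp711 promoter, GRCr8 chrX:81838432-81838731, plus strand: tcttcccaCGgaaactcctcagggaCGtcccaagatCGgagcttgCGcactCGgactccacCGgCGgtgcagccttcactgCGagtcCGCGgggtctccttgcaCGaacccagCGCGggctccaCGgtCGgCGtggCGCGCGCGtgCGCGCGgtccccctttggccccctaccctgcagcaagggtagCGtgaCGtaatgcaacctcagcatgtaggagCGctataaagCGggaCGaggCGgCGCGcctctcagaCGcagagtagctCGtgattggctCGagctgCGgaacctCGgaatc
Zfp951 promoter, GRCr8 chr14:5353409-5353708, minus strand: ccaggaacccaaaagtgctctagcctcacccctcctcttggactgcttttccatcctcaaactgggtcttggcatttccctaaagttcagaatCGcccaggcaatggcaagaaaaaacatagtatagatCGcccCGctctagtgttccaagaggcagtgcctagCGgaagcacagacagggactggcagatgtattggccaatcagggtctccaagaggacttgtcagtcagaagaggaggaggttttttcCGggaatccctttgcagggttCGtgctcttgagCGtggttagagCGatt
Zfp958 promoter, GRCr8 chr12:8750980-8751279, plus strand: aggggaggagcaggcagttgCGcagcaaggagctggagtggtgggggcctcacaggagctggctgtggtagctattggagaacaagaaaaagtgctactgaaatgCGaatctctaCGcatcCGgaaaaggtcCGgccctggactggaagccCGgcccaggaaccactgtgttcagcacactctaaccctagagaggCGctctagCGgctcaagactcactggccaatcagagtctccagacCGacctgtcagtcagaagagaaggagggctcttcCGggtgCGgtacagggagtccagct
The Zfp746 promoter held 39 CG, a number that 3.76% of all promoters reach, and the Zfp711 promoter held 36, which 5.43% reach. The Zfp638 promoter held 17, which 29.0% reach. The promoters of Zfp958 and Zfp951 held 11 and 8, numbers that 39.0% and 47.6% of promoters reach. Over the 44 genes with H3K4me3 called in the gene's region the median was 19.5 CG, and over the 5 without it was 8. The 23 genes with H3K9me3 called in the region where their H3K9me3 was highest had a median of 13 CG, against 20.5 for the 26 genes with no such call. Across the 49 genes, the CG number and the log2 control H3K4me3 had Pearson's r = 0.36 and Spearman's rho = 0.28, which is a description over genes that share libraries.

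Nearly all of the high-numbered zinc finger genes carried active promoter marks in cortex. H3K4me3 was called in the gene's region for 62 of 68 rat genes (91.2%) and 129 of 137 mouse genes (94.2%), against 76.0% of all rat genes and 74.7% of all mouse genes. H3K9Ac was called for 64 rat genes (94.1%) and 120 mouse genes (87.6%), against 76.4% and 71.3% of all genes. The other numbered Zfp genes, 142 in rat and 189 in mouse, had shares of 93.7% and 97.4% for H3K4me3. For H3K9Ac their shares were 94.4% and 96.8%, so the high shares were not particular to the high-numbered genes. The median H3K4me3 signal of the zinc finger genes in control libraries was 16.5 ± 2.58 in rat and 12.1 ± 4.63 in mouse (SD, n = 3), against 10.5 ± 1.91 and 8.38 ± 3.02 over all genes. Ranked among all genes of each control library, the median zinc finger gene lay at percentile 69.1 ± 1.12 in rat and 68.7 ± 0.84 in mouse for H3K4me3, and at 63.8 ± 2.40 and 59.6 ± 5.72 for H3K9Ac. The median other numbered Zfp gene lay at 68.1 and 66.7 for H3K4me3, and at 65.6 and 58.1 for H3K9Ac. The rank of the zinc finger genes in H3K4me3 thus varied little between control libraries whose levels differed. Across the genes' regions, log2 H3K4me3 and log2 H3K9Ac in controls had r = 0.95 in rat (66 regions) and 0.87 in mouse (124 regions), over regions measured in the same libraries.

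Of the zinc finger genes, 58 in rat and 126 in mouse had at least 1 listed region that contained their own start. H3K4me3 was called in such a region for 53 of the 58 rat genes (91.4%) and 124 of the 126 mouse genes (98.4%), against 83.1% and 81.9% over all genes with such a region. Among the other numbered Zfp genes with such a region it was called for 93.1% and 98.4%. In the gene's region, whose choice favours H3K4me3, it was called for all 45 rat genes and 105 of 106 mouse genes whose region contained their start. Where the gene's region lay away from the start, 17 of 23 rat and 24 of 31 mouse genes had the call. Regions with an annotated CpG island and a promoter had a median control H3K4me3 of 17.6 in rat (49 genes) and 13.0 in mouse (94 genes). Regions with a promoter and no island had 12.6 (13 genes) and 9.84 (39 genes), and regions with no promoter had 2.52 (6 genes) and 2.12 (4 genes). The share of genes with an island in the region was close to that of all genes, at 73.5% against 68.1% in rat and 68.6% against 69.7% in mouse.

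The highest H3K4me3 in rat stood at Zfp612, Zfp638 and Zfp821, with control means of 58.3 ± 8.44, 45.9 ± 11.5 and 32.5 (SD, n = 3). The Zfp612 region (chr19:52403000-52403599, rn5) is only 600 bp long and lies 5.15 kb upstream of the annotated start, and its H3K4me3 was 113, 68.0 and 122 in VPA TAK-418 rats, 75.5, 80.2 and 77.0 in VPA vehicle rats and 48.6, 64.4 and 61.8 in control rats. Zfp638 encodes a nuclear protein that binds nucleic acids and takes part in silencing unintegrated retroviral DNA, and its region (chr4:180187000-180191799) had H3K4me3 of 77.5, 50.5 and 63.6 in VPA TAK-418 rats, 57.2, 60.9 and 67.8 in VPA vehicle rats and 32.7, 53.2 and 51.7 in control rats. In both genes control 1 was the lowest of the 9 libraries. The lowest H3K4me3 among rat genes with the call stood at Zfp663, Zfp618 and Zfp710, with control means of 2.23, 3.80 and 4.56. In mouse, Zfp608 and Zfp830 were highest. Zfp608 had 17.5, 15.4 and 20.3 in poly I:C TAK-418 mice, 19.3, 12.9 and 14.6 in poly I:C vehicle mice and 40.3, 21.5 and 19.5 in control mice. Zfp830, whose protein acts in genome stability and early development, had 18.7, 13.9 and 16.9 in poly I:C TAK-418 mice, 17.8, 17.7 and 14.0 in poly I:C vehicle mice and 39.8, 20.9 and 19.9 in control mice. Control 1 was the highest mouse library in both, and the other 2 control libraries lay within or just above the range of the poly I:C libraries. The lowest of the mouse genes with the call was Zfp820, at 1.45.

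Polycomb marking was found at a smaller share of these genes than of genes in general in both species, as a description with no test of the shares. H3K27me3 was called in the gene's region for 9 of 68 rat genes (13.2%), against 26.8% of the 142 other numbered Zfp genes and 38.9% of all genes. In mouse it was called for 15 of 137 (10.9%), against 19.0% of the 189 other numbered Zfp genes and 33.1% of all genes. In the region where each gene's H3K27me3 was highest, the shares were 26.5%, 35.9% and 48.7% in rat and 19.0%, 27.0% and 41.0% in mouse, in the same order. The median zinc finger gene lay at percentile 30.8 ± 1.47 of control H3K27me3 in rat and 26.7 ± 2.66 in mouse (SD, n = 3), against 37.3 and 32.5 for the other numbered Zfp genes. In the gene's region, none of the 18 rat genes in tandem runs had the mark called, and 3 of 66 mouse genes in runs did, against 9 of 50 rat and 12 of 71 mouse genes outside runs. In the region where each gene's H3K27me3 was highest, 4 of the 18 rat genes in runs (22.2%) and 6 of the 66 mouse genes in runs (9.09%) had it, against 14 of 50 (28.0%) and 20 of 71 (28.2%) outside runs.

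The highest H3K27me3 in rat was at Zfp879, whose region also lists the glutamate receptor gene Grm6. Its signal was 10.3, 4.76 and 4.60 in VPA TAK-418 rats, 5.83, 7.61 and 4.55 in VPA vehicle rats and 6.25, 10.5 and 3.25 in control rats, and the groups overlapped. In mouse it was at Zfp707, in a 35.2 kb region that lists 5 genes. Its signal was 7.64, 9.93 and 10.7 in poly I:C TAK-418 mice, 28.4, 19.5 and 5.49 in poly I:C vehicle mice and 10.3, 16.6 and 17.8 in control mice, with the poly I:C vehicle libraries reaching both below and above the other groups. Zfp618, whose protein binds UHRF2, a reader of hydroxymethylated DNA, followed in mouse with a control mean of 6.15, and Zfp648 with 5.37.

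H3K9me3 was called in the gene's region for 16 of 68 rat genes (23.5%) and 31 of 137 mouse genes (22.6%), against 24.8% and 17.9% of all genes. It was more often found in another region listing the same gene. Taking for each gene the region with the highest mean H3K9me3, called its H3K9me3 region below, the mark was called for 31 of 68 rat genes (45.6%) and 63 of 137 mouse genes (46.0%). The shares among the other numbered Zfp genes were 57.0% and 40.2%, and among all genes 37.6% and 25.9%. In mouse the share of zinc finger genes therefore lay above both others, and in rat it lay between them. The mouse order was the same under other ways of calling the mark. Without control 1, the library with most intervals, the mouse shares were 43.8% for the zinc finger genes, 36.5% for the other numbered Zfp genes and 21.1% for all genes. With a call required in 6 of 9 libraries they were 37.2%, 24.3% and 9.15%, and with both changes 23.4%, 17.5% and 2.15%.

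Of the zinc finger genes with the call, 18 in rat and 41 in mouse had it in a region other than the gene's region. In rat 10 of the 18 lay downstream of the gene, 7 within it and 1 upstream. Their median signed distance from the start was 19.6 kb, with upstream counted as negative. In mouse 21 of the 41 lay downstream, 12 within the gene and 8 upstream, at a median signed distance of 21.0 kb. H3K4me3 was not called in 11 of those 18 rat and 32 of those 41 mouse regions. Of all pairs of a gene and a region with H3K9me3 called, 3 of 112 in mouse (2.68%) had the region's centre within 3 kb of the start, against 8.16% over all mouse genes. In rat the share was 8 of 55 (14.5%), above the 9.98% over all genes. Regions can be long, and a region that contained the gene's own start had H3K9me3 called for 19 of 58 rat genes (32.8%) and 31 of 126 mouse genes (24.6%), against 21.8% and 15.3% over all genes with such a region. Among the other numbered Zfp genes with such a region the shares were 30.0% and 20.2%. Of the pairs with H3K4me3 called, 71 of 182 in mouse (39.0%) and 30 of 90 in rat (33.3%) had the region's centre within 3 kb. These shares were close to the 34.2% and 34.7% over all genes.

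**Figure D1:**
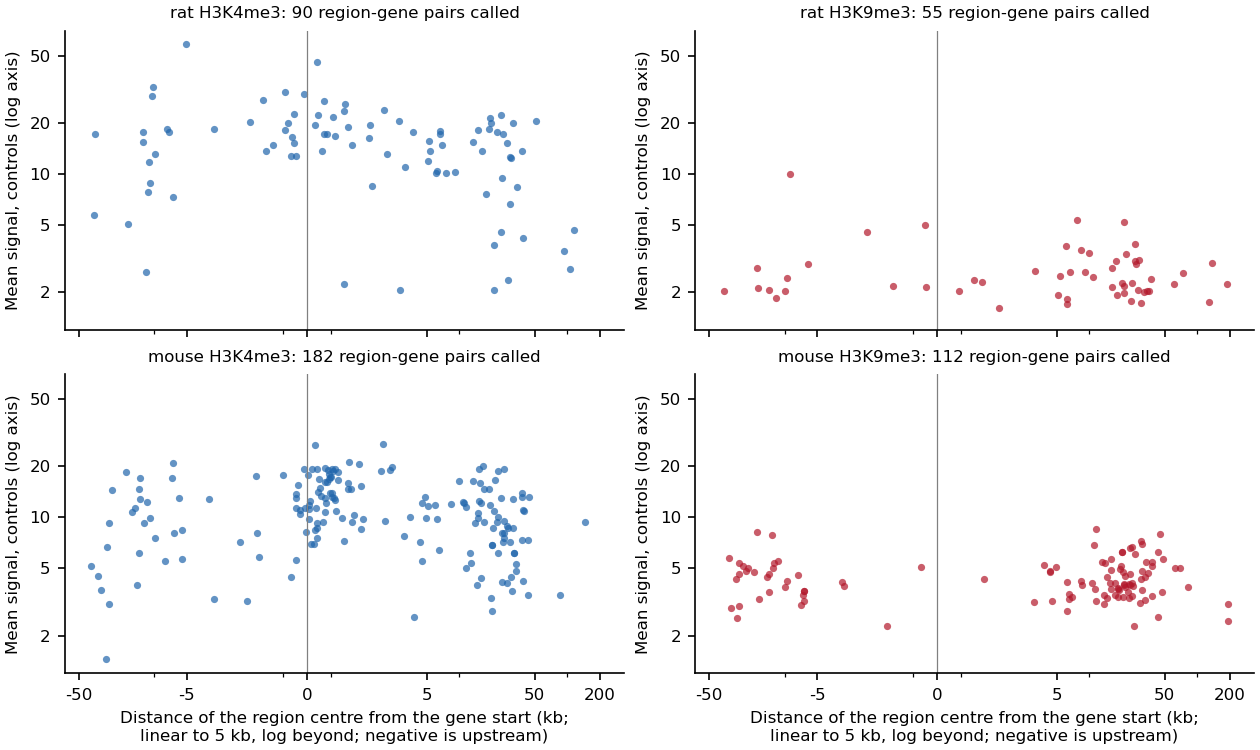
Control signal of H3K4me3 and of H3K9me3 (vertical axes, log scale, mean of 3 libraries) in every pair of a high-numbered Zfp gene and a region that lists it and has the mark called, against the distance in kb of the region's centre from the start of the gene (linear to 5 kb, log beyond), for rat and mouse. In mouse, the centre lies within 3 kb of the start in 71 of 182 pairs with called H3K4me3 and 3 of 112 with called H3K9me3. In rat it does in 30 of 90 and 8 of 55. The shares over all genes are 34.2% and 8.16% in mouse and 34.7% and 9.98% in rat. Regions can be long, so a region centred farther away can still contain the start.

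In several genes H3K4me3 was called in the gene's region and H3K9me3 in a separate region, in which H3K4me3 could be called too. H3K4me3 in the gene's region with H3K9me3 called not there but in a separate H3K9me3 region was found for 17 rat genes (25.0%) and 32 mouse genes (23.4%), against 12.0% of all rat and 7.29% of all mouse genes. Both marks in the same region were found for 12 rat genes (17.6%) and 25 mouse genes (18.2%), against 11.5% and 6.78% of all genes. H3K9me3 in the gene's region without H3K4me3 was found for 4 rat genes (5.88%) and 6 mouse genes (4.38%), against 13.3% and 11.1% of all genes. Among the other numbered Zfp genes these shares were 26.1%, 27.5% and 5.63% in rat, in the same order. In mouse they were 20.1%, 20.1% and 1.06%. The separate and shared marking was thus not particular to the high-numbered genes. Zfp809, a KRAB protein that silences murine retroviruses through their proline primer binding site, had a control H3K4me3 of 19.4 ± 7.90 (SD, n = 3) at its start in mouse and no H3K9me3 call there in any library. Its H3K9me3 region (chr9:22228800-22261799, mm10, centred 19.6 kb downstream and listing Zfp599 too) had H3K9me3 of 5.78, 1.89 and 4.17 in poly I:C TAK-418 mice, 2.09, 1.96 and 5.18 in poly I:C vehicle mice and 8.50, 3.71 and 3.28 in control mice. Zfp932, a KRAB protein that represses endogenous retroviruses of the ERVK class, had a control H3K4me3 of 13.4 ± 5.12 in its region. Its H3K9me3 region (chr5:110020200-110059199, centred 43.2 kb downstream) had 6.05, 1.81 and 5.10 in poly I:C TAK-418 mice, 2.13, 1.93 and 5.52 in poly I:C vehicle mice and 10.9, 4.31 and 3.48 in control mice. Both downstream regions had H3K9me3 called in 9 of 9 libraries, and in both the 3 libraries with few intervals gave the lowest values. H3K4me3 was called in 9 of 9 libraries in both downstream regions too, so the 2 marks were not fully apart at these genes. In rat, Zfp612 had its H3K9me3 within the gene, 8.35 kb from the start, at 8.16, 5.01 and 5.08 in VPA TAK-418 rats, 5.65, 7.07 and 5.86 in VPA vehicle rats and 3.45, 3.57 and 3.62 in control rats, also called in 9 of 9 libraries. In that region H3K4me3 was called in 0 libraries.

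**Figure D2:**
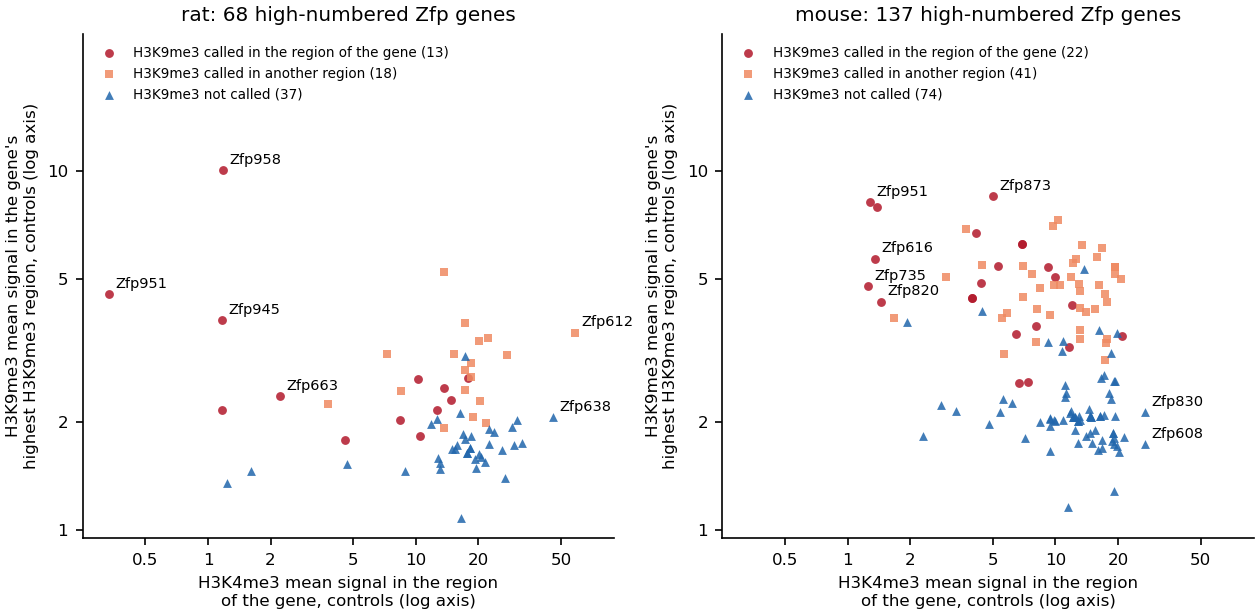
Control H3K4me3 in the gene's region (horizontal axis, log scale) against control H3K9me3 in the gene's H3K9me3 region (vertical axis, log scale), each point 1 high-numbered Zfp gene and the mean of 3 libraries, for rat and mouse. Colours separate genes whose highest H3K9me3 was called in the gene's own region, was called in another region, or was not called; rat Zfp958, at 10.0, lies above all other rat genes.

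The mouse H3K9me3 libraries with few intervals kept a large share of those intervals at zinc finger genes. Regions that list a high-numbered Zfp gene make up 285 of the 60110 mouse regions (0.474%), and those that list another numbered Zfp gene 337 (0.561%). The high-numbered genes' regions took 26 of 284 H3K9me3 intervals in poly I:C TAK-418 2 (9.15%), 36 of 446 in poly I:C vehicle 1 (8.07%) and 30 of 251 in poly I:C vehicle 2 (12.0%). In the other 6 libraries they took 0.394% to 1.66%, the highest in control 3, which had the fewest intervals of those 6. The other numbered Zfp genes' regions took 7.39%, 4.71% and 7.97% in the same 3 libraries and 0.350% to 1.03% in the other 6. In rat, where no library had so few intervals, the high-numbered genes' regions made up 0.207% of all regions and took 0.187% to 0.376% of the intervals of a library. The 3 libraries with the high shares were those with the fewest intervals and came from both poly I:C groups, and whether regions of other gene families were kept in the same way was not tested.

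H3K9me3 was called in all 9 libraries in the H3K9me3 region of 18 of 68 rat genes (26.5%), against 29.6% of the other numbered Zfp genes and 10.8% of all genes. In mouse this was so for 17 of 137 genes (12.4%), against 10.6% and 0.634%. The 17 mouse genes lie in 16 regions, since Zfp763 and Zfp952 share a region. In mouse the highest control means in the gene's region were those of Zfp873 (chr10:82046200-82072999) and Zfp951 (chr5:104868400-104887999). Zfp873 had H3K9me3 of 8.77, 2.38 and 7.26 in poly I:C TAK-418 mice, 2.73, 2.56 and 8.05 in poly I:C vehicle mice and 15.1, 5.66 and 4.70 in control mice. Zfp951 had 8.55, 2.02 and 7.26 in poly I:C TAK-418 mice, 2.20, 2.17 and 7.69 in poly I:C vehicle mice and 15.1, 5.06 and 4.33 in control mice. In both genes control 1 was the highest library and the 3 libraries with few intervals the lowest, so the groups overlapped. In rat the highest control means in the gene's region were those of Zfp958 (chr12:7608800-7611999) and Zfp951 (chr14:6267400-6268399). Rat Zfp958 had 23.4, 15.2 and 14.0 in VPA TAK-418 rats, 17.9, 21.8 and 21.3 in VPA vehicle rats and 7.72, 10.2 and 12.2 in control rats, with all 6 VPA libraries above all 3 controls. Such a separation from the controls was found for 86.0% of all genes tested with VPA vehicle and 55.0% with VPA TAK-418. Rat Zfp951 had 14.2, 6.90 and 8.55 in VPA TAK-418 rats, 11.2, 11.6 and 6.90 in VPA vehicle rats and 1.87, 5.76 and 6.00 in control rats, and control 1, at 1.87, lay below all other libraries and was the library without the call. Among the 18 rat genes called in all libraries Zfp945 followed Zfp958, with a control mean of 3.84 ± 0.45 (SD, n = 3) in its H3K9me3 region, 26.8 kb downstream of its start. Across the genes' regions, log2 H3K4me3 and log2 H3K9me3 in controls had r = -0.52 in rat (66 regions) and -0.56 in mouse (124 regions), against -0.33 and -0.61 over the regions of all genes.

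Many of the genes lie in runs. Taking runs of at least 3 genes with gaps of up to 500 kb between regions, 18 rat genes formed 4 runs and 66 mouse genes formed 12. H3K9me3 was unequal between the runs. In mouse it was called in the H3K9me3 region of 8 of 10 genes on chromosome 17 (chr17:21381200-22869599), 5 of 6 on chromosome 8 (chr8:69205000-69754599) and 4 of 4 in a second run there (chr8:71879400-71959199). It was called for none of 9 genes on chromosome 7 (chr7:127187600-127915799, Zfp771 to Zfp646), none of 3 in another run there (chr7:4905600-5099199) and none of 7 on chromosome 6 (chr6:47822800-48605599, Zfp786 to Zfp775). The matching rat run of Zfp771, Zfp689, Zfp668 and Zfp646 (chr1:205661400-206368799) likewise had none of 4, and the rat run of Zfp786 to Zfp775 (chr4:142187000-142913999) had 2 of 6. The rat run of Zfp866, Zfp869, Zfp964 and Zfp868 (chr16:21328200-21447599) had 3 of 4, and the mouse run on chromosome 8 that holds the same 4 genes had 5 of 6. H3K4me3 was called for all genes of 11 of the 12 mouse runs and 3 of the 4 rat runs. As a whole, mouse genes in runs had H3K9me3 called no more often than those outside, at 47.0% against 45.1%.

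**Figure D3:**
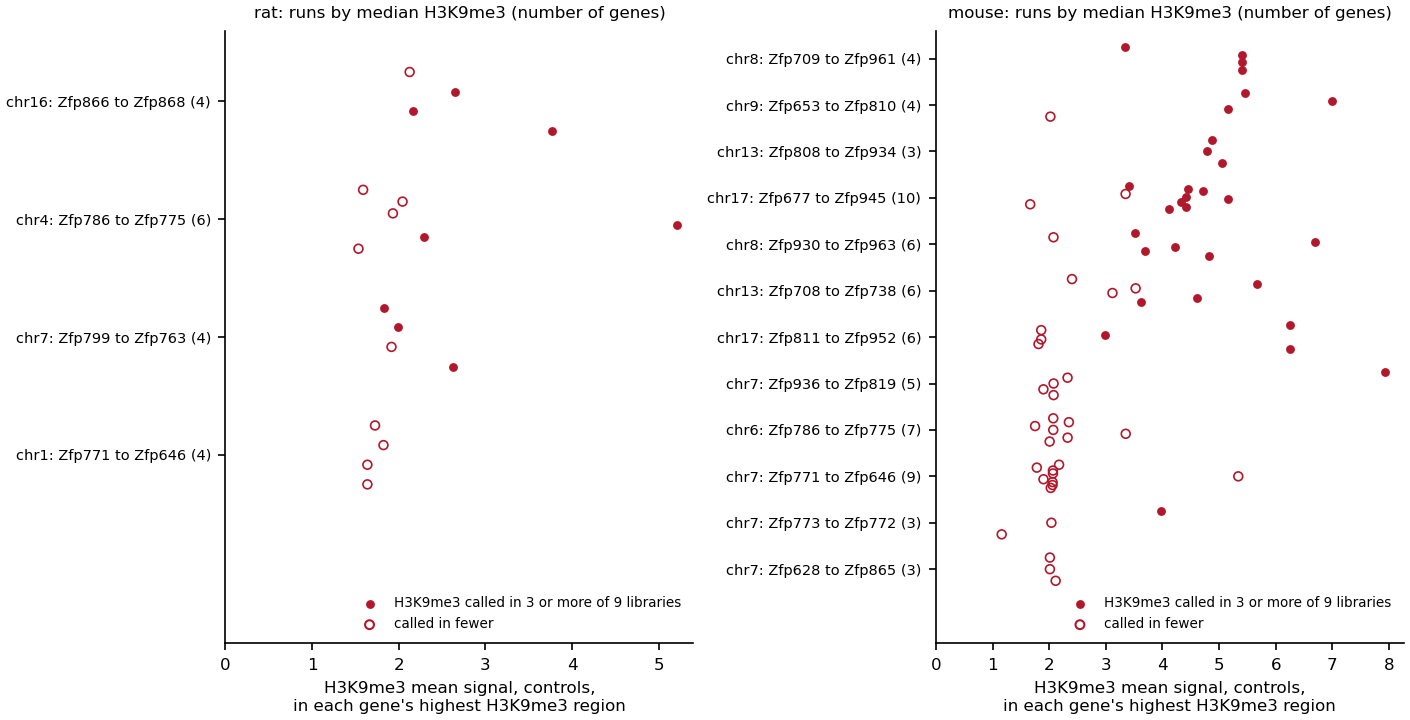
Runs of neighbouring high-numbered Zfp genes in rat and mouse, 1 band of points per run and 1 point per gene, with the mean control H3K9me3 signal in the gene's H3K9me3 region on the horizontal axis; filled points are called in at least 3 of 9 libraries. Runs on mouse chromosomes 8, 9 and 17 hold most of the genes with the mark called, and the run on mouse chromosome 6 and the run of 9 genes on mouse chromosome 7 hold none.

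The 65 symbols found in both species allow a comparison of the same-named genes. In their H3K9me3 regions, 19 were called in both species, 11 in rat only, 2 in mouse only and 33 in neither. The control log2 H3K9me3 values of the 65 had r = 0.61 and rho = 0.66 between species. For H3K4me3, 58 were called in both, with r = 0.56. For H3K27me3, 2 were called in both, 7 in rat only, 4 in mouse only and 52 in neither. These are descriptions over genes, and antibody lots for H3K4me3 and H3K27me3 differed between the species, so levels were not compared.

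The first comparison asks what prenatal VPA exposure changed in rat cortex. In bulk tissue, more cells that carry a mark and more of the mark per cell cannot be told apart. H3K9Ac was higher in VPA vehicle rats than in controls at 61 of the 64 zinc finger genes with the mark, with none lower (limma, adjusted p under 0.05). Over all 15368 genes tested, 96.5% rose, so the zinc finger genes moved with the whole profile. Their median log2 change was 0.82, against 0.88 over all genes. With TAK-418, 7 of the 64 genes were lower in VPA TAK-418 than in VPA vehicle rats, with none higher, against 10.4% of all genes lower, and the median was -0.44, against -0.52. Between VPA TAK-418 rats and controls limma called none of the 64, with 3 at an unadjusted p under 0.05 and 0% called of all genes, and the median was 0.34, against 0.36; without VPA vehicle 3 it called 30. The deposited values carry a difference in level between whole libraries, and the sources used here do not say how libraries were scaled. Here and below, a count with a library left out or another setting stands without the share of all genes called, unless that is given. Such counts show how far the calls rest on single libraries and on the processing, and are not read as results about the zinc finger genes.

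**Figure D4:**
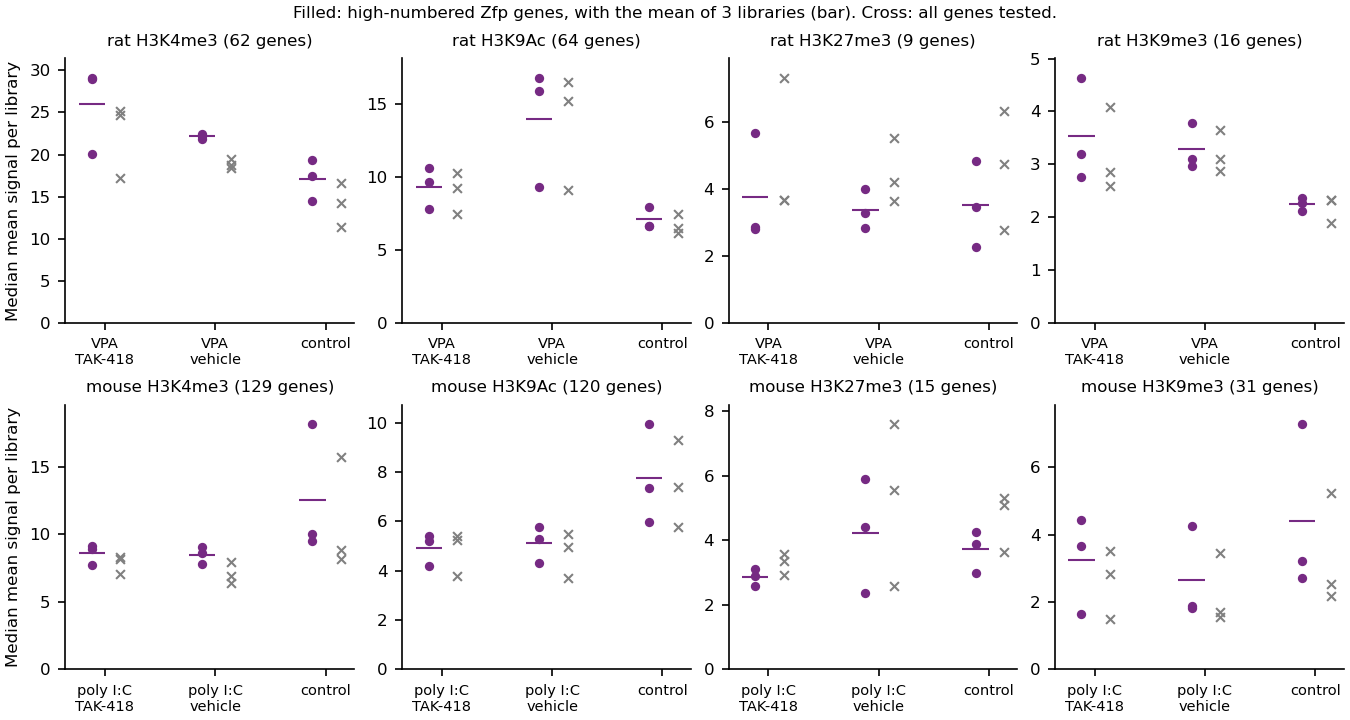
Median signal of the high-numbered Zfp genes with the mark (points, 1 per library, bar at the group mean) and of all genes with the mark (crosses), for each mark and group in rat and mouse. In every mark the zinc finger genes follow the library-wide level; rat H3K9Ac medians are 15.9, 16.8 and 9.28 in VPA vehicle rats, against 7.92, 6.66 and 6.66 in control rats.

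Zfp800 had the smallest p for H3K9Ac among the zinc finger genes (chr4:55265400-55270799). Its signal was 10.6, 13.1 and 9.79 in VPA TAK-418 rats, 28.4, 26.8 and 16.5 in VPA vehicle rats and 13.1, 8.45 and 7.15 in control rats. Among all genes tested, the VPA vehicle libraries lay above all controls in 94.3% and above all VPA TAK-418 libraries in 20.0%. At Zfp800 all 3 VPA vehicle libraries lay above the other 6. The log2 change was 1.24 ± 0.26 (SE, limma adjusted p = 3.01e-04) for VPA vehicle against control and -1.01 ± 0.26 (SE, limma adjusted p = 0.0175) for VPA TAK-418 against VPA vehicle. Zfp711, the X-linked gene whose human counterpart is mutated in intellectual disability and whose protein binds the demethylase PHF8, had H3K9Ac of 8.39, 10.3 and 7.59 in VPA TAK-418 rats, 22.1, 20.1 and 14.5 in VPA vehicle rats and 9.99, 7.00 and 8.94 in control rats (chrX:84010200-84013999). Here too the groups of VPA vehicle and of the other 6 libraries did not overlap. The changes were 1.04 ± 0.26 (SE, limma adjusted p = 4.23e-04) and -1.01 ± 0.26 (SE, limma adjusted p = 0.0172) for the same comparisons. Zfp637 had 18.6, 20.9 and 11.7 in VPA TAK-418 rats, 30.5, 36.2 and 23.3 in VPA vehicle rats and 16.0, 11.2 and 11.9 in control rats, a change of 1.13 ± 0.26 (SE, limma adjusted p = 3.06e-04) with VPA vehicle. Zfp638 had 25.3, 28.6 and 16.9 in VPA TAK-418 rats, 45.3, 49.8 and 31.9 in VPA vehicle rats and 20.6, 21.6 and 15.6 in control rats, and the change for VPA TAK-418 against VPA vehicle was -0.83 ± 0.27 (SE, limma adjusted p = 0.0404). In all 4 genes VPA vehicle 3 was the lowest of its group. Without VPA vehicle 3, 62 of the 64 genes were called lower with TAK-418, and without control 1 it was 2, without VPA TAK-418 2 it was 5, and without any other single library 0.

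After each library was shifted so that the median over all tested regions was equal, some zinc finger genes were higher and others lower. Of 64 genes, 2 were higher in H3K9Ac in VPA vehicle rats than in controls, against 11.9% of all genes, and 12 were lower, against 10.6%. The 2 higher were Zfp800, at 0.38 ± 0.12 (SE, limma adjusted p = 0.0442), and Zfp653, whose human counterpart encodes a corepressor of steroidogenic factor 1. In the region where its H3K9Ac was highest, the centred change of Zfp653 was -0.10. The 12 lower were Zfp608, Zfp617, Zfp652, Zfp763, Zfp799, Zfp819, Zfp866, Zfp869, Zfp949, Zfp952, Zfp966 and Zfp978. Zfp966 had deposited values of 8.75, 8.69 and 5.73 in VPA TAK-418 rats, 9.06, 10.8 and 6.46 in VPA vehicle rats and 6.74, 6.36 and 5.98 in control rats, and a centred change of -0.47 ± 0.08 (SE, limma adjusted p = 0.00978). Its deposited mean was higher in VPA vehicle rats, with VPA vehicle 3 inside the range of the controls, so the centred fall stands for a smaller rise than that of the median region and not for a lower deposited level. Zfp952 had a centred change of -0.62 ± 0.12 (SE, limma adjusted p = 0.0132). The count of 14 was 2 without control 2, control 3 or VPA vehicle 1, 4 without VPA vehicle 2, 9 without VPA TAK-418 3 and 19 without VPA vehicle 3, and Zfp966 was called in 9 of those 9 fits and Zfp952 in 8. With quantile normalization none of the 64 was called, against 61 as deposited.

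In the same centred fit, TAK-418 against vehicle gave 7 zinc finger genes higher, against 9.21% of all genes, and 3 lower, against 8.16%. The 7 higher were Zfp608, Zfp652, Zfp697, Zfp772, Zfp799, Zfp966 and Zfp978, and the 3 lower were Zfp644, Zfp711 and Zfp800. Zfp652 encodes a repressor that works with the corepressor CBFA2T3, and its H3K9Ac was 3.91, 4.57 and 3.09 in VPA TAK-418 rats, 4.68, 5.83 and 2.58 in VPA vehicle rats and 2.70, 2.37 and 2.49 in control rats, with a centred change of 0.40 ± 0.07 (SE, limma adjusted p = 0.00580). Zfp799 changed by 0.33 ± 0.07 (SE, limma adjusted p = 0.00948). Zfp711 changed by -0.51 ± 0.09 (SE, limma adjusted p = 0.00703) and Zfp800 by -0.50 ± 0.12 (SE, limma adjusted p = 0.0197). The human counterpart of Zfp644 binds the H3K9 methyltransferases G9a and GLP. Zfp652, Zfp772, Zfp799 and Zfp711 were called whichever of the 9 libraries was left out. The count of 10 was 4 without VPA vehicle 1 or VPA TAK-418 1 and 12 without VPA vehicle 3 or control 1. Quantile normalization called 3 genes, Zfp608 and Zfp799 higher and Zfp711 lower.

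H3K4me3 in rat was higher at 45 of the 62 zinc finger genes in VPA TAK-418 rats than in controls, with none lower, against 85.8% of all 15287 genes higher. The medians were 0.56 and 0.61. Between VPA vehicle rats and controls 2 of 62 were higher, against 1.64% of all genes, with medians of 0.36 and 0.41, and these were Zfp746 and Zfp618. Between VPA TAK-418 and VPA vehicle rats limma called none of 62, with 2 at an unadjusted p under 0.05 and 0.137% called of all genes, and called 2 without VPA TAK-418 2. The medians of the zinc finger genes lay close to those of all genes, and after centring on tested regions limma called none of the 62 in any of the 3 comparisons. Zfp746 encodes PARIS, a substrate of the ubiquitin ligase parkin that represses the metabolic coactivator PGC-1α. Its region (chr4:142407200-142418399) had H3K4me3 of 28.1, 17.0 and 19.0 in VPA TAK-418 rats, 23.3, 23.2 and 19.7 in VPA vehicle rats and 7.15, 17.8 and 14.2 in control rats. All 3 VPA vehicle libraries lay above the 3 controls, as for 63.3% of all genes tested, and control 1 was the lowest control. The changes were 0.80 ± 0.22 (SE, limma adjusted p = 0.0375) with VPA vehicle and 0.72 ± 0.22 (SE, limma adjusted p = 0.00404) with VPA TAK-418, each against control. Zfp618 had 7.34, 5.14 and 6.61 in VPA TAK-418 rats, 5.99, 6.32 and 5.79 in VPA vehicle rats and 2.59, 5.59 and 3.21 in control rats, in a region 21.2 kb from its start that holds no promoter, and its 3 VPA vehicle libraries also lay above the 3 controls. The change was 0.60 ± 0.18 (SE, limma adjusted p = 0.0495) with VPA vehicle. Zfp622, which acts in maturation of the large ribosomal subunit, had 47.4, 33.5 and 46.6 in VPA TAK-418 rats, 28.7, 39.0 and 32.9 in VPA vehicle rats and 16.8, 26.0 and 24.7 in control rats, and the change was 0.90 ± 0.24 (SE, limma adjusted p = 0.00184) for VPA TAK-418 against control. Zfp703, a transcriptional cofactor amplified in human breast cancer, had 31.4, 20.3 and 25.9 in VPA TAK-418 rats, 20.8, 19.7 and 26.8 in VPA vehicle rats and 9.55, 22.8 and 12.4 in control rats, with control 2 inside the range of the other groups. The change was 0.82 ± 0.22 (SE, limma adjusted p = 0.00214) for VPA TAK-418 against control.

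Both rat H3K4me3 counts rest on single libraries. For VPA vehicle against control the count of 2 was 22 without control 2, 27 without VPA TAK-418 2, 1 without VPA TAK-418 3 and 0 without any other. For VPA TAK-418 against control the count of 45 was 7 without VPA TAK-418 1, 11 without VPA TAK-418 3 and 15 without control 1, and otherwise 35 to 59.

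H3K9me3 in rat was higher at 8 of the 16 zinc finger genes with the mark in VPA vehicle rats than in controls, with none lower, against 45.6% of 4986 genes higher. It was higher at 4 of 16 in VPA TAK-418 rats than in controls, against 18.1%. The median changes were 0.38, against 0.40 over all genes, and 0.45, against 0.36. In the genes' H3K9me3 regions 15 of 31 were higher with VPA vehicle, against 52.8% of genes tested there, and 7 of 31 with VPA TAK-418, against 29.6%. All 4 shares are near those of all genes. As deposited, every VPA vehicle library lay above every control at 16 of the 16 genes, against 86.0% of all genes. Every VPA TAK-418 library did so at 13, against 55.0%. Between VPA TAK-418 and VPA vehicle rats limma called none of 16, with 0 at an unadjusted p under 0.05 and 0% called of all genes. Zfp951 changed by 1.05 ± 0.34 (SE, limma adjusted p = 0.0234) with VPA vehicle and by 1.03 ± 0.34 (SE, limma adjusted p = 0.0319) with VPA TAK-418, each against control. Zfp958 changed by 0.97 ± 0.38 (SE, limma adjusted p = 0.0359) with VPA vehicle. Zfp868 had 4.82, 3.56 and 3.02 in VPA TAK-418 rats, 3.00, 4.29 and 3.09 in VPA vehicle rats and 2.14, 2.25 and 2.10 in control rats, and all 6 VPA libraries lay above all 3 controls, with a change of 0.58 ± 0.20 (SE, limma adjusted p = 0.0398) for VPA TAK-418. Zfp964 had 2.65, 2.17 and 2.22 in VPA TAK-418 rats, 2.25, 2.61 and 1.97 in VPA vehicle rats and 1.59, 1.64 and 1.61 in control rats, and the change was 0.35 ± 0.11 (SE, limma adjusted p = 0.0221) for VPA TAK-418 against control. The VPA vehicle count of 8 was 0 without any 1 of the 3 controls, VPA vehicle 1 or VPA vehicle 2, 4 without VPA vehicle 3 or VPA TAK-418 2, 16 without VPA TAK-418 1 and 13 without VPA TAK-418 3. The VPA TAK-418 count of 4 was 0 without any control, VPA vehicle 1 or VPA TAK-418 1, 1 without VPA vehicle 3, 3 without VPA vehicle 2 or VPA TAK-418 2 and 14 without VPA TAK-418 3. With each centring, on all regions or on tested regions, and with quantile normalization both counts were 0, and the Zfp964 change for VPA TAK-418 against control became -0.00304 and -0.088 with the 2 centrings.

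H3K27me3 in rat was tested at 9 zinc finger genes, and limma called none in any of the 3 comparisons, with 0 at an unadjusted p under 0.05 and 0% called of 7816 genes.

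The second model asks the same of prenatal poly I:C exposure in mouse cortex, where the levels ran the other way. H3K9Ac was lower in poly I:C vehicle mice than in controls at 47 of the 120 zinc finger genes, against 67.2% of 16663 genes lower. It was higher at 1, Zfp934, against 0.00600% of all genes, which is 1 gene of the 16663. The median change was -0.48, against -0.56 over all genes. Zfp934 had 3.18, 2.22 and 4.00 in poly I:C TAK-418 mice, 4.91, 4.73 and 6.53 in poly I:C vehicle mice and 5.47, 2.81 and 2.95 in control mice, with control 1 between the poly I:C vehicle libraries and the other 2 controls below all 3. Its change was 0.46 ± 0.21 (SE, limma adjusted p = 0.0457) for poly I:C vehicle against control, and that for poly I:C TAK-418 against poly I:C vehicle was -0.64 ± 0.21 (SE, limma adjusted p = 1.00). Zfp707 had 4.45, 4.77 and 2.34 in poly I:C TAK-418 mice, 3.96, 2.00 and 3.57 in poly I:C vehicle mice and 6.32, 6.39 and 4.42 in control mice, with all 3 controls above the poly I:C vehicle libraries. Its change was -0.70 ± 0.22 (SE, limma adjusted p = 0.0289). Zfp609, a partner of the cohesin loader NIPBL, had 5.37, 5.59 and 3.19 in poly I:C TAK-418 mice, 5.76, 3.33 and 5.12 in poly I:C vehicle mice and 9.17, 8.56 and 6.02 in control mice, and again all 3 controls were highest. Among all genes tested, all controls lay above all poly I:C vehicle libraries in 75.8% and above all poly I:C TAK-418 libraries in 75.4%. The count of 48 was 95 without control 3, 26 without poly I:C TAK-418 2, 32 without poly I:C TAK-418 1, 70 without poly I:C TAK-418 3, 50 without poly I:C vehicle 1 and 0 without any other library, and after centring on tested regions it was 0. Between poly I:C TAK-418 and poly I:C vehicle mice limma called none of 120, with 1 at an unadjusted p under 0.05. Between poly I:C TAK-418 mice and controls it called none either, with 73 at an unadjusted p under 0.05, and without control 3 it called 107 and without poly I:C vehicle 2 61. In both comparisons 0% of all genes were called.

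H3K4me3 in mouse had median changes of 0.07 for poly I:C TAK-418 against poly I:C vehicle, -0.47 for poly I:C vehicle against control and -0.41 for poly I:C TAK-418 against control, and the medians over all genes were 0.13, -0.49 and -0.37. Limma called none of the 129 zinc finger genes in any of them as deposited, with 0, 38 and 15 at an unadjusted p under 0.05 in the same order, and 0%, 0% and 0.00573% called of 17446 genes. Without control 3, 76 were called in poly I:C vehicle against control and without control 1 it was 1. Without control 1, 2 were called in poly I:C TAK-418 against poly I:C vehicle. Zfp931, which had the smallest p, is represented by a region of 400 bp (chr2:178077800-178078199), and its signal was 10.5, 5.92 and 9.75 in poly I:C TAK-418 mice, 11.5, 4.50 and 7.00 in poly I:C vehicle mice and 30.5, 12.7 and 14.4 in control mice. Among all genes tested, all controls lay above all poly I:C vehicle libraries in 58.7% and above all poly I:C TAK-418 libraries in 26.8%. At Zfp931 all 3 controls lay above all 6 poly I:C libraries. The change was -1.20 ± 0.28 (SE, limma adjusted p = 0.110) for poly I:C vehicle against control and -0.99 ± 0.28 (SE, limma adjusted p = 0.292) for poly I:C TAK-418 against control.

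After centring on tested regions, H3K4me3 in poly I:C TAK-418 against poly I:C vehicle mice was lower at 4 of 129 zinc finger genes, against 0.539% of all genes, and higher at 1, against 0.585%. The 4 lower all lie in 1 run on chromosome 13 (chr13:67056200-67684799, mm10), and 2 of them, Zfp708 and Zfp712, share a region. Zfp738 had deposited values of 11.1, 9.87 and 11.2 in poly I:C TAK-418 mice, 14.9, 12.8 and 12.8 in poly I:C vehicle mice and 27.6, 14.4 and 13.8 in control mice. Zfp953 had 6.64, 7.10 and 6.77 in poly I:C TAK-418 mice, 8.62, 9.56 and 9.22 in poly I:C vehicle mice and 15.0, 9.50 and 9.05 in control mice, in a region that also lists Zfp456. Zfp708 and Zfp712 had 8.77, 7.66 and 8.90 in poly I:C TAK-418 mice, 10.5, 9.54 and 9.59 in poly I:C vehicle mice and 18.6, 10.7 and 10.2 in control mice. In all 3 regions every poly I:C TAK-418 library lay below every poly I:C vehicle library. As deposited, 12 of the 129 zinc finger genes lay lower in this way, against 2.48% of all genes, and 5 lay higher, against 6.71%. After centring 30 lay lower, against 9.87%, and 13 higher, against 19.7%. These shares were not tested. The centred changes were -0.41 ± 0.06 (SE, limma adjusted p = 0.0310) for Zfp738, -0.47 ± 0.10 (SE, limma adjusted p = 0.0462) for Zfp953 and -0.31 ± 0.05 (SE, limma adjusted p = 0.0352) for the shared region. The other 2 genes of the run overlapped between groups. Zfp748 had 13.7, 12.4 and 14.3 in poly I:C TAK-418 mice, 13.6, 10.2 and 13.1 in poly I:C vehicle mice and 29.1, 15.1 and 14.8 in control mice, and Zfp759 had 10.1, 8.57 and 10.4 in poly I:C TAK-418 mice, 10.2, 9.68 and 9.99 in poly I:C vehicle mice and 18.2, 10.5 and 9.14 in control mice. The 1 gene higher was Zfp707, with deposited H3K4me3 of 5.26, 4.35 and 5.77 in poly I:C TAK-418 mice, 4.25, 2.89 and 3.67 in poly I:C vehicle mice and 9.01, 5.29 and 4.22 in control mice and a centred change of 0.31 ± 0.07 (SE, limma adjusted p = 0.0462). In the region where its H3K4me3 was highest the change was -0.17 centred and -0.068 as deposited. The calls rest on single libraries: the count of 5 was 0 without control 3, without poly I:C vehicle 2 or 3 and without any 1 of the poly I:C TAK-418 libraries, 1 without control 1 or control 2, and 29 without poly I:C vehicle 1.

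**Figure D5:**
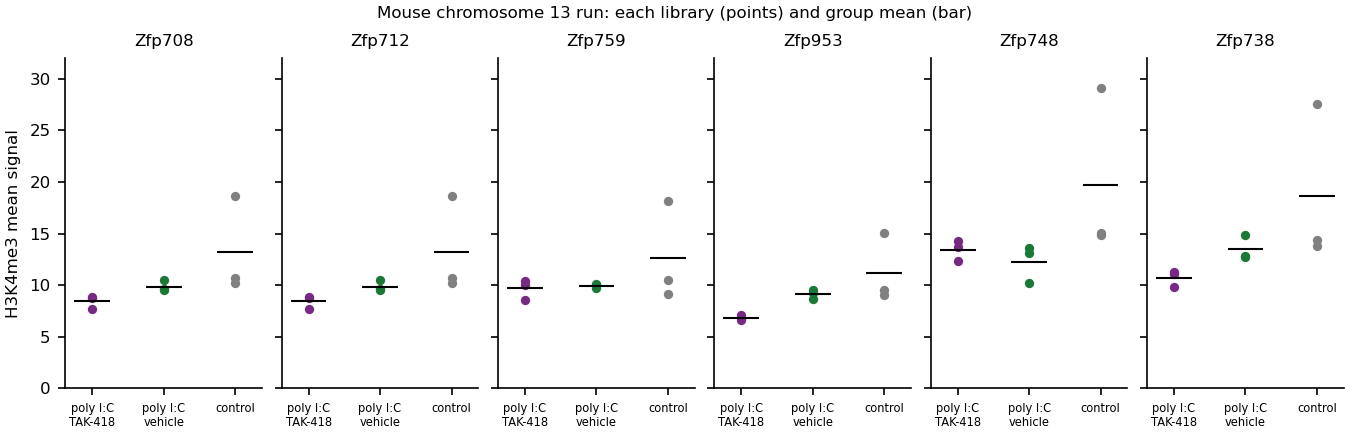
Deposited H3K4me3 signal for the 6 genes of the mouse chromosome 13 run, 1 point per library and bars at the group means, in poly I:C TAK-418, poly I:C vehicle and control mice. Zfp708 and Zfp712 share a region and so have the same points. For these and for Zfp738 and Zfp953 all 3 TAK-418 points lie below all 3 vehicle points, as for 2.48% of all genes tested. Control 1 is the highest point of every panel.

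The run on chromosome 13 was not alone in its sign. H3K9me3 was called in the H3K9me3 region of 3 of its 6 genes. The centred median change in H3K4me3 for poly I:C TAK-418 against poly I:C vehicle was -0.31 over its 6 genes, -0.27 over the 6 genes and -0.22 over the 4 genes of the runs on chromosome 8, and -0.14 over the 10 genes on chromosome 17. In the 3 runs with no H3K9me3 call it was 0.06 over 9 genes and -0.01 over 3 genes on chromosome 7, and 0.07 over 7 genes on chromosome 6. In the other 5 runs it lay between -0.13 and 0.06. Divided by H3K9me3, the 57 mouse genes with the mark called in the H3K9me3 region had a median of -0.11, with 44 below 0, and the 72 without it had 0.01, with 35 below 0. Over all mouse genes the medians were 0.02 with the mark (3197 genes, 1306 below 0) and 0.02 without it (14249 genes, 6005 below 0). The sign of the split was not the same in every comparison. In H3K4me3 for poly I:C vehicle against control, the 57 genes had a centred median of 0.12, with 14 below 0. The 72 genes had -0.03, and the medians over all genes were 0.05 and -0.01. For poly I:C TAK-418 against control, the 57 genes had 0.00440, with 28 below 0, and the 72 had -0.04. The medians over all genes were then 0.07 and 0.01. The same poly I:C vehicle libraries enter the comparison with TAK-418 and that with control. For H3K9Ac in poly I:C vehicle against control mice the centred medians were 0.19 with H3K9me3 (51 genes, 8 below 0) and 0.01 without it (69 genes), against 0.03 and -0.03 over all genes. In rat H3K9Ac, VPA vehicle against control, they were -0.12 (27 genes) and -0.02 (37 genes), against 0.02 and 0.03. In rat H3K9Ac, VPA TAK-418 against VPA vehicle, they were 0.07 and 0.06, against -0.01 and -0.01. In rat H3K4me3, VPA vehicle against control, they were -0.10 and 0.01, against -0.01 and -0.01. The split in the remaining comparisons is not given here. These medians are descriptions over genes that share libraries and, in part, regions, and no difference between them was tested.

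H3K27me3 was tested at 15 mouse zinc finger genes and H3K9me3 at 31, and limma called none in any comparison, with 0 at an unadjusted p under 0.05 and 0% called of 7732 and 4184 genes. For H3K27me3 the median changes were -0.37 for poly I:C TAK-418 against poly I:C vehicle and -0.30 for poly I:C TAK-418 against control, with -0.46 and -0.40 over all genes. Without poly I:C vehicle 3, the library with few intervals, all 15 genes were called lower in poly I:C TAK-418 against poly I:C vehicle mice. The share of all genes called in that fit is not given here, so the count does not set the zinc finger genes apart. For H3K9me3 the medians were 0.23 for poly I:C TAK-418 against poly I:C vehicle, -0.51 for poly I:C vehicle against control and -0.30 for poly I:C TAK-418 against control, with 0.17, -0.41 and -0.22 over all genes. Without the 3 libraries with few intervals limma called none, in a fit with 2 poly I:C TAK-418 libraries and 1 poly I:C vehicle library, which was assumed to vary like the other groups.

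The genes whose products work with KRAB zinc finger proteins, among them Trim28, the SETDB1 cofactor gene Atf7ip and the heterochromatin protein gene Cbx5, were read as a list beside them. Trim28 had a control H3K4me3 of 21.2 ± 4.78 in rat and 20.2 in mouse. In rat H3K9Ac, 25 of the 26 tested were higher in VPA vehicle rats than in controls and 6 were lower in VPA TAK-418 than in VPA vehicle rats. In rat H3K4me3, 24 of 26 were higher in VPA TAK-418 rats than in controls and 1 of 26 in VPA vehicle rats. In mouse H3K9Ac, 15 of 24 were lower in poly I:C vehicle mice than in controls. After centring, 6 of the 26 were higher and 3 lower in rat H3K9Ac with VPA vehicle, and 1 was higher and 5 lower with VPA TAK-418 against VPA vehicle. The shares of all genes called in these comparisons are those given above for the zinc finger genes.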

How the data were processed

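Cortex ChIP-seq libraries of 4 histone marks, 3 per group and mark, were compared among 3 groups in each species. The authors' deposited tables give, per region and library, an average signal and whether an interval was called; reads were aligned with BWA 0.7.12 to mm10 or rn5, per the submitters' processing notes. Which caller, bin width and library scaling the authors used is not given in the sources used here. The depth behind a value is therefore unknown, and the pooled inputs were not analysed here. Every per-library column of both tables matched a sample, with 0 left over.

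Signals were tested as log2(signal + 1), so a fold change understates the change of low regions. For each mark, genes with an interval in at least 3 of 9 libraries entered 1 limma 3.58.1 fit (R 4.3.3) over the 9 libraries of a species, with Benjamini-Hochberg adjustment over all genes tested at 0.05. Tables were handled in Python 3.11.15 with pandas 2.3.3. Centring each library on the median of all regions left the tested regions off centre, so centring on tested regions was added after seeing the data. The scripts were tested on simulated data. The labels do not tie libraries to separate animals, and the p-values reflect only the spread between samples, which may be technical. After each library's median was removed, same-numbered libraries deviated together (every r between 0.156 and 0.500) only in mouse H3K27me3, TAK-418 against control. That comparison had 0 calls with and without the block. The check cannot show pairing in the level of whole libraries, and the labels name no shared litter or day.

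The members, the list of partner genes and the list of genes with known roles were chosen with earlier results of these data known. Genes were named by these rules: the 3 highest and 3 lowest control means per species and mark, the 4 smallest p-values per comparison as deposited and the 4 smallest after median centring among genes whose groups do not overlap, the 5 highest H3K9me3 values in any region, and the genes with known roles. The genes called after centring on tested regions, the chromosome 13 run and the genes with H3K9me3 in all libraries were named after their values were seen.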

Additional observations from a re-analysis of the deposited data

How the results depend on the processing

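Counts are of high-numbered Zfp genes called by limma at an adjusted p under 0.05, and were 0 in every alternative not named here. For rat H3K4me3, VPA vehicle against control (2 as deposited), the count was 0 with median centring, quantile normalization, no interval filter, the region highest for the mark, a replicate block and both centrings on tested regions (the gene's region, or the region highest for the mark), and 0 to 27 with a library left out. For VPA TAK-418 against control (45) it was 0 with quantile normalization and both centrings on tested regions, and 7 to 59; for VPA TAK-418 against VPA vehicle it was 0 to 2. For rat H3K9Ac, VPA vehicle against control (61), it was 0 with quantile normalization and 14 with each centring on tested regions, mostly lower, and 48 to 64. For VPA TAK-418 against VPA vehicle (7) it was 35 with median centring, 3 with quantile normalization, 3 without the filter, 31 with the block and 10 with each centring on tested regions, and 0 to 62; for VPA TAK-418 against control it was 0 to 30. For rat H3K9me3, VPA vehicle against control (8), it was 0 with every centring, quantile normalization and the block, 1 without the filter, 15 in the H3K9me3 regions and 0 to 16; for VPA TAK-418 against control (4) it was 0 with every centring and quantile normalization, 1 with the block, 7 in the H3K9me3 regions and 0 to 14.

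For mouse H3K4me3, poly I:C vehicle against control, it was 1 with median centring and with the block, and 0 to 76; for poly I:C TAK-418 against poly I:C vehicle it was 7 with quantile normalization, 5 and 4 with the centrings on tested regions and 0 to 2. For mouse H3K9Ac, poly I:C vehicle against control (48), it was 25 with median centring, 0 with quantile normalization and the centrings on tested regions, 75 with the block and 0 to 95; for poly I:C TAK-418 against control it was 1 without the filter, 89 with the block and 0 to 107. For mouse H3K27me3 it was 1 without the filter in each TAK-418 comparison, and 0 to 15 for TAK-418 against vehicle. After centring on tested regions, leaving out a library gave 2 to 19, 4 to 12 and 0 to 29 for the 3 comparisons with calls. The mouse share with H3K4me3 was 87.6% in the region nearest the start, and that with H3K9me3 was 81.8% and 37.2% with an interval in 1 and in 6 of 9 libraries. Outside mouse H3K27me3, TAK-418 against control, same-numbered libraries did not all deviate together once each library's median was removed. In no comparison did every library correlate best with its own number. Pairing in the level of whole libraries was not tested, and the block changed several of the counts above.

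Of the settings for named genes, 481 kept direction and side of the threshold, 187 lost the call, 16 gained it and 33 changed sign, mostly near 0. With centring on tested regions Zfp879 (rat H3K4me3) became -0.066 and Zfp653 (rat H3K9Ac) -0.10 in the regions highest for the mark, Zfp952 (rat H3K9me3) became -0.053, -0.085, -0.088 and -0.11, Zfp964 -0.15 and -0.088, Zfp691 -0.11, Zfp758 (mouse H3K9Ac) 0.17, Zfp961 0.096 and 0.098 (H3K27me3), 0.065 and 0.17 (H3K9me3) and Zfp959 0.19, while Zfp707 (mouse H3K4me3) was -0.17 and, as deposited in the region highest for the mark, -0.068. With median centring or quantile normalization Zfp952 became -0.00385 and -0.00275, Zfp964 -0.00420 and -0.00304, Zfp691 -0.033, Zfp710 -0.019 and Zfp961 0.00736 and 0.050. With a library left out, H3K27me3 changes ranged from -0.35 to 0.069 for rat Zfp655 (VPA vehicle against control), from -0.13 to 0.32 for Zfp655 (VPA TAK-418 against VPA vehicle), from -0.062 to 0.26 for Zfp710 and from -0.14 to 0.41 for mouse Zfp691. Without the 3 mouse H3K9me3 libraries with few intervals Zfp616 became 0.028. The cause was not tested for any of these. Limits: depth is unknown, regions average several genes, and a shift of a whole library cannot be told apart from a change at every region.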

Other observations

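Among the 65 symbols found in both species, the direction of the deposited level after prenatal exposure differed between the models. Of the 57 tested for H3K9Ac in both, 37 had all vehicle libraries of the exposed animals on opposite sides of their controls in rat and mouse, without overlap, and 0 had them on the same side. The 37 are 64.9% of the 57, against 74.1% of the 11743 symbols of all genes tested in both species. For H3K4me3 it was 26 of 58 (44.8%), against 40.4% of 12079, and 0 on the same side. For TAK-418 against vehicle it was 0 in both senses for both marks. The difference between species was not tested, the exposures differ, and whole libraries differed in level in the same directions.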
